A study of Mus musculus with 24 samples.

Results

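The mouse Zfp genes are a large set of zinc finger protein genes whose official symbols consist of Zfp and a number. Of 336 such genes on the array, 177 had a mean log2 value of 5 or more over the 24 arrays, and these are called the expressed Zfp genes here. They stand among 22180 genes measured in all, of which 8430 (38%) reached the same value. The members were chosen by this measured mean over all arrays, so their levels are a description, while the differences between genotypes and between times were not used in that choice. A gene that is high in only some groups can still pass the mean, and 34 of the 177 had at least 1 group mean below 5.

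The study measured RNA of naïve CD4 T cells, taken from mice lacking TRIM28 (KO) and from wild-type (WT) littermates, isolated with magnetic beads and then by flow sorting. Cells were either left unstimulated (0 h) or stimulated through CD3 and CD28 with antibodies, anti-CD3 being bound to the plate and anti-CD28 in solution, for 4, 24 or 72 h. The 8 groups of genotype and time had 3 arrays each, numbered 1 to 3. The sources used here do not give how TRIM28 was deleted, the age of the animals or the gate of the sort. Nothing in them ties arrays to separate animals, so p-values measure the spread between arrays.

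Most Zfp genes encode proteins with tandem C2H2 zinc fingers that read DNA sequence, and many of these also carry a KRAB domain. The KRAB domain recruits TRIM28 (also called KAP1), which in turn brings the histone methyltransferase SETDB1 and heterochromatin proteins to the bound site, often a retrotransposon. KRAB zinc finger genes lie in clusters that arose by duplication, and their own clusters are known to carry TRIM28 and its repressive histone mark. A minority of genes with a Zfp symbol encode something else, such as RNA-binding proteins, ubiquitin ligases or ribosome assembly factors.

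The members that differed most between KO and WT unstimulated cells include 3 near neighbours on chromosome 17, Zfp53, Zfp948 and Zfp760, and Zfp983, a member between them, did not pass the test. Their promoter windows are shown because the genes lie in 1 row and responded unlike each other. The windows are RefSeq sequences of build GRCm38.p6 on the + strand, from 250 bases before to 50 bases after the annotated start. Capitals mark 3 motifs searched on both strands: CCAAT (bound by NF-Y; ATTGG on the other strand), GGGCGG (a GC box, bound by Sp factors; CCGCCC) and TGACGT (the core of the CREB/ATF site; ACGTCA).
Zfp53, chr17:21488738-21489037: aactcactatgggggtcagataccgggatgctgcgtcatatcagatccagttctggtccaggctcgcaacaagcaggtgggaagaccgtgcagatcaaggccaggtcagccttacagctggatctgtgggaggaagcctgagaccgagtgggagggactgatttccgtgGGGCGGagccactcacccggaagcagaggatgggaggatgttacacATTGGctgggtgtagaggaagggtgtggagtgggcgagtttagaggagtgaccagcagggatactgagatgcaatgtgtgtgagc
Zfp948, chr17:21566728-21567027: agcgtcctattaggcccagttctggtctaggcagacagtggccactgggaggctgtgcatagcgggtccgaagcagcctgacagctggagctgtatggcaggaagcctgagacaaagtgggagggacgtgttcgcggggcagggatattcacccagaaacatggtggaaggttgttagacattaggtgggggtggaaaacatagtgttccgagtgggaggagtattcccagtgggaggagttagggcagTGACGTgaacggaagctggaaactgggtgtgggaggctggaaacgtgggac
Zfp983, chr17:21650361-21650660: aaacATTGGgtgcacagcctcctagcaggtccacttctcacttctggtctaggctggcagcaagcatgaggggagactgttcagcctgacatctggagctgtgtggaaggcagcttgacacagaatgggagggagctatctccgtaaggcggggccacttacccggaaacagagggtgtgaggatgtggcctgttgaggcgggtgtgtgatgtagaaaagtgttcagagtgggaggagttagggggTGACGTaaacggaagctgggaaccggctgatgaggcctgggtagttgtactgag
Zfp760, chr17:21707491-21707790: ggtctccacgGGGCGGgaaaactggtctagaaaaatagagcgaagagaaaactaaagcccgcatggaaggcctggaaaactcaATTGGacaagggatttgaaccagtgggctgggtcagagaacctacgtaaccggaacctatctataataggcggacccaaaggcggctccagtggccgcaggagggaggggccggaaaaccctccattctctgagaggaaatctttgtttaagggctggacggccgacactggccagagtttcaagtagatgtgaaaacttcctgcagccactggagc
The first 3 windows resemble each other, and the last does not. In pairwise alignments Zfp53 and Zfp983 were 62.2% identical, Zfp948 and Zfp983 59.9%, and Zfp53 and Zfp948 56.5%. The window of Zfp760 was 49.7% identical to that of Zfp53, 48.4% to that of Zfp948 and 45.1% to that of Zfp983. Against the 162 windows of members on other chromosomes, Zfp53 had a median identity of 47.0% (range 40.1% to 50.6%), Zfp948 46.3% (40.1% to 50.3%), Zfp983 46.4% (39.6% to 52.0%) and Zfp760 45.9% (39.6% to 51.1%). In Zfp948 and Zfp983 TGACGT lies at the transcript start, 1 and 4 bases before it respectively.

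The members' means ran from 5.0 to 9.01 with a median of 6.16. By level, 79 members lay between 5 and 6, 59 between 6 and 7, 27 between 7 and 8, and 12 at 8 or more. The highest means belonged to Zfp207 (9.01; BuGZ, a spindle assembly protein), Zfp36 (8.83; tristetraprolin, which binds AU-rich elements and promotes mRNA decay), Zfp706 (8.71), Zfp592 (8.64), Zfp131 (8.50; a BTB-domain zinc finger protein), Zfp638 (8.42; NP220, which silences unintegrated retroviral DNA), Zfp84 (8.36) and Zfp148 (8.25; ZBP-89). Values of different probe sets are not on a common scale of RNA amount, so this order, which rests on the values that chose the members, describes the array and not the number of transcripts. Just inside the limit lay Zfp438 (5.0), Zfp637 (5.03) and Zfp974 (5.04), and just outside it Zfp182 (4.99), Zfp248 (4.98) and Zfp949 (4.97). A further 37 Zfp genes below the limit reached 5 in at least 1 group. Between the highest and the lowest of the 8 group means, members ranged over a median of 0.79 log2 units. For 51 members this range was 1 or more, and for 8 it was 2 or more. Arrays of 1 group differed little, with a median SD of 0.12 over members and 0.10 over all genes at level 5 or more.

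The arrays were checked for the genotype, for cell type and for arrays that stood apart. Trim28 itself read 7.81, 7.71 and 7.84 in the 3 WT arrays at 0 h and 5.12, 4.93 and 5.44 in the KO arrays, and KO minus WT was -2.62, -3.10, -3.58 and -3.09 at 0, 4, 24 and 72 h (the place of its probes relative to the deletion is not known here). All 8 T cell markers measured of 10 listed were at 5 or more, with array means of 10.20 to 10.32 at 0 h. Of them 1, Cd5, was called lower in KO at 0 h (-0.35), and 3 and 4 were called higher at 24 and 72 h. Of the naïve markers 4 of 6 were measured, and 4, 3 and 3 were lower in stimulated WT cells at 4, 24 and 72 h, while 4, 5 and 5 of 5 activation markers were higher. In the other direction, the naïve marker Ccr7 was higher at 72 h (0.75) and the activation marker Mki67 lower at 4 h (-0.69). Between genotypes, naïve markers called higher in KO numbered 0, 1, 2 and 1 and lower 0, 0, 0 and 2 at 0, 4, 24 and 72 h (S1pr1 1.55 at 24 h, Il7r -1.13 at 72 h), and activation markers 2, 1, 0 and 0 and 2, 1, 3 and 1. On average, genes of B cells and myeloid cells read higher in KO arrays at 0 h. The mean of 12 B cell markers (of 15 listed) was 4.38 to 5.22 in WT and 4.95 to 5.74 in KO arrays. That of 15 myeloid markers was 3.36 to 3.55 in WT and 3.65 to 4.27 in KO arrays. At 72 h the myeloid mean was 3.12 to 3.23 in WT and 2.97 to 3.13 in KO arrays, and 1 myeloid marker was called lower in KO. Called higher in KO at 0, 4, 24 and 72 h were 2, 0, 2 and 1 B cell markers and 5, 4, 1 and 0 myeloid markers, with KO array 2 the lowest KO array for B cell markers at each time. Averaged over the times, 10 of the 12 B cell markers and 5 of the 15 myeloid markers were called higher in KO. In that average 0 of either list were called lower. Of 2 CD8, 6 NK cell and 2 erythroid or platelet genes measured, 0 were called higher in KO at any time. Called lower were Klrd1 at 0 h (-0.90), Eomes at 24 h (-0.92) and 72 h (-3.15), Nkg7 at 72 h (-1.94) and Cd8b1 at 24 h (-0.41) and 72 h (-0.65). The arrays numbered 3 differed from the others in both genotypes by 3 Y-linked genes, whose mean was 6.93 to 7.51 there and 2.35 to 2.64 in the arrays numbered 1 and 2. The part of these differences in the results on Zfp genes was not tested; the counts without arrays 3, and with KO array 2 as the only KO array, stand beside them. In bulk RNA, fewer cells of a type and less RNA per cell cannot be told apart.

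In unstimulated cells a few Zfp genes were higher in KO, in a share near that of all genes at level 5 or more. Of the 177 members 7 (3.95%) rose and 1 (0.565%) fell at an adjusted p under 0.05 (limma, Benjamini-Hochberg over all 22180 genes), against 1.76% and 0.577% of all genes and 3.31% and 1.03% of genes at level 5 or more. The median change over members was 0.08 log2 units, against 0.04 over genes at level 5 or more and 0.00 over all genes. Counted over all 336 Zfp genes, 11 rose and 1 fell. On arrays quantile-normalised once more, 5 members rose and 2 fell, and the median change was 0.02 over members and -0.01 over genes at level 5 or more. The count of 8 called members became 5 without WT array 2, KO array 1 or KO array 2, 5 (4 higher, 1 lower) when arrays 3 were left out, and 3 when KO array 2 was the only KO array used, and those 3 were Zfp760, Zfp53 and Zfp948.

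Zfp53 was the member that differed at every time. At 0 h it read 6.92, 6.53 and 6.90 in WT arrays and 8.06, 8.26 and 8.49 in KO arrays, a difference of 1.48 ± 0.16 (SE, n = 3 and 3; adjusted p = 9.57e-07). At 4 h the WT arrays read 7.37, 7.06 and 6.87 and the KO arrays 7.65, 8.04 and 7.73 (0.71 ± 0.16, adjusted p = 0.0104). At 24 h the values were 6.65, 6.55 and 6.06 in WT and 7.46, 7.03 and 7.12 in KO (0.78, adjusted p = 0.0021), and at 72 h 6.43, 6.11 and 6.02 in WT and 6.88, 6.84 and 7.16 in KO (0.78, adjusted p = 0.00248). All 3 KO arrays lay above all 3 WT arrays at each of the 4 times. The call at 4 h was lost without WT array 3 (adjusted p = 0.0648) or KO array 2 (0.0764), and the call at 72 h on arrays 1 and 2 alone (0.0856).

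Zfp760 showed the widest gap at 0 h, and the gap closed with time. Unstimulated WT arrays read 4.92, 5.0 and 5.01 and KO arrays 6.37, 6.56 and 6.94 (1.65 ± 0.15, adjusted p = 4.08e-08). At 4 h the 3 WT arrays were at 5.32, 5.93 and 5.5 and the 3 KO arrays at 6.23, 6.28 and 6.0 (0.59 ± 0.15, adjusted p = 0.0254), and at 24 h at 6.42, 6.11 and 6.54 against 6.98, 6.58 and 7.05 (0.51, adjusted p = 0.0292). At 72 h WT read 6.73, 6.95 and 7.02 and KO 6.97, 6.83 and 6.97, which overlap (0.03, adjusted p = 0.98). WT arrays thus climbed over the time course, while KO arrays lay between 6.0 and 7.05 throughout. The calls at 4 h and at 24 h were each lost without any of 4 arrays, which were WT arrays 1 and 3 and KO arrays 1 and 2 at 4 h and WT arrays 1 and 2 and KO arrays 1 and 3 at 24 h, with adjusted p from 0.0828 to 0.166 and from 0.0573 to 0.165.

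Zfp948 behaved in another way again. At 0 h the WT arrays read 4.52, 5.04 and 4.92 and the KO arrays 6.04, 6.11 and 5.35 (1.01 ± 0.14, adjusted p = 6.33e-05), so the groups did not overlap. At 4 h, when both genotypes were far higher, WT arrays read 9.26, 9.39 and 9.45 and KO arrays 9.08, 9.01 and 9.03, a difference of -0.33 that did not pass (adjusted p = 0.247). Zfp983, between Zfp948 and Zfp760, read 5.61, 5.34 and 5.01 in WT and 5.32, 5.39 and 5.33 in KO arrays at 0 h, a difference of 0.03.

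The other members called at 0 h changed less or varied more. Zfp781 read 5.62, 5.41 and 5.48 in WT and 6.56, 6.09 and 6.54 in KO arrays (0.89 ± 0.17, adjusted p = 0.00359). Zfp992 read 4.28, 4.56 and 5.46 in WT and 6.22, 5.75 and 5.84 in KO (1.17 ± 0.30, adjusted p = 0.0347). Zfp160 (0.43 ± 0.12, adjusted p = 0.0463) and Zfp110 (0.32 ± 0.08, adjusted p = 0.0374; Nrif, which binds the p75 neurotrophin receptor) completed the higher set. The 1 lower member was Zfp592, at 9.18, 9.19 and 9.23 in WT and 8.83, 8.89 and 8.95 in KO arrays (-0.31 ± 0.07, adjusted p = 0.00808). None of the 8 overlapped between genotypes, which describes genes already called on these arrays and is no further support for the calls. The share of all genes without overlap is not given here. The calls of Zfp760, Zfp53, Zfp948 and Zfp781 held without any 1 of the 24 arrays, whereas Zfp592 was lost without KO array 1 (adjusted p = 0.0566), Zfp110 without WT array 2 or 3 or KO array 2 or 3 of 0 h (0.0579 to 0.206), Zfp992 without 5 of the 6 arrays of 0 h, all but WT array 3 (0.0548 to 0.201), and Zfp160 without any of 14 arrays, all 6 of 0 h among them (0.0502 to 0.131).

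**Figure D1:**
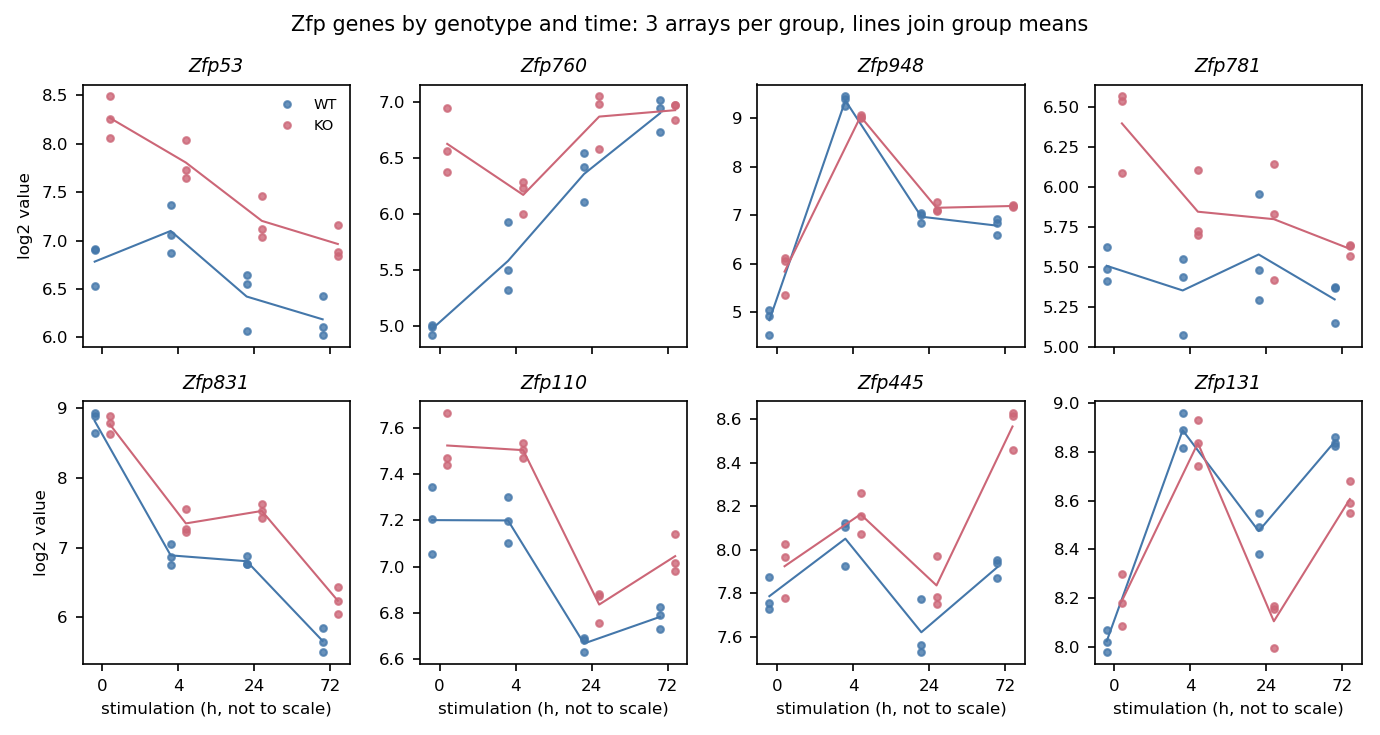
Log2 value of 8 expressed Zfp genes on each of the 24 arrays, by hours of stimulation, with WT and KO arrays as separate points and lines through the means of the 3 arrays. The KO points of Zfp53 lie above the WT points at all 4 times, those of Zfp760 meet them at 72 h, those of Zfp831 lie above them at 4, 24 and 72 h, and those of Zfp445 at 72 h.

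The place of these genes in the genome was then examined with the gene order of the RefSeq table, a run being 3 or more Zfp genes with at most 3 other protein-coding genes between neighbours. There were 30 such runs, holding 86 members (median level 5.88); another 90 members stood alone or in pairs (median level 6.41). At 0 h, 6 of the 86 members in runs were higher in KO and 0 lower, against 1 higher and 1 lower of the 90 others; the difference between the 2 sets was not tested. Over all Zfp genes the counts were 8 higher and 0 lower of 166 in runs and 3 and 1 of 167 outside them. At 4 h 3 members in runs and 5 outside were higher, at 24 h 3 and 5, and at 72 h 3 and 4. Lower were 0 and 0 at 4 h, 1 in runs and 10 outside at 24 h, and 1 and 4 at 72 h. Of genes at level 5 or more, 3.31%, 7.43%, 9.04% and 5.77% were higher at 0, 4, 24 and 72 h. The shares lower were 1.03%, 1.36%, 16.6% and 6.93%. The median change of members in runs and outside was 0.11 against 0.05 at 0 h, and 0.10 against 0.04 at 4 h.

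The longest run extends from Zfp677 to Zfp40 and holds 19 Zfp genes, of which 8 are members: Zfp53, Zfp948, Zfp983, Zfp760, Zfp942, Zfp943, Zfp758 and Zfp945. Its 19 genes had a median change of 0.26 at 0 h, and 3 of them, all members, were called higher. Zfp943 read 5.60, 5.64 and 5.64 in WT and 6.21, 6.43 and 5.85 in KO arrays at 0 h, and Zfp945 6.89, 7.33 and 6.87 and 7.84, 7.49 and 7.62. The differences were 0.54 and 0.62, and neither passed the test across all genes (adjusted p = 0.0592 and 0.103). Zfp942 (0.32) and Zfp758 (0.21) were not called. In the same run Zfp946, below the level limit, was called lower in KO at 72 h (-0.67, adjusted p = 0.0238). A run of 3 genes, Zfp781, Zfp873 and Zfp938, had 2 called at 0 h: besides Zfp781 this was Zfp873, below the level limit, with KO minus WT of 1.16, 1.03 and 0.61 at 0, 4 and 24 h, all called, and 0.40 at 72 h, not called. Zfp946 and Zfp873 were singled out after their values had been seen. Near-identical copies in such runs can bind each other's probes, and probe sequences were not used here, so the share of each gene in a signal is uncertain.

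**Figure D2:**
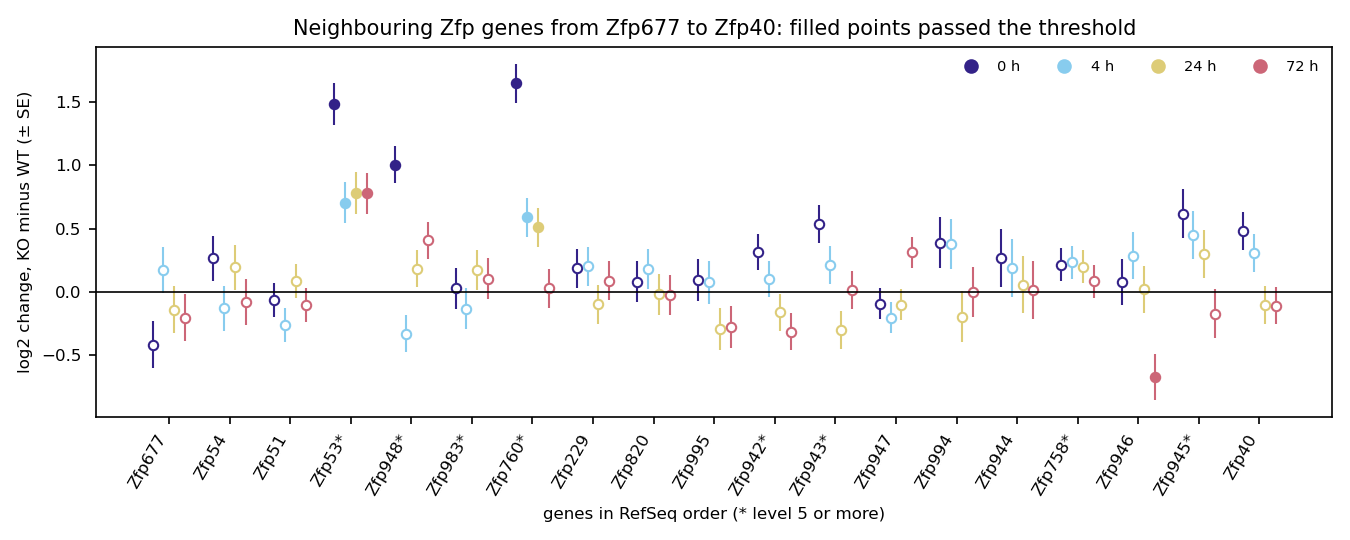
KO minus WT in log2 units, with its SE, for the 19 Zfp genes from Zfp677 to Zfp40 in genome order at 0, 4, 24 and 72 h; filled points passed the test and stars mark the 8 genes at level 5 or more. Zfp53, Zfp948 and Zfp760 stand above their neighbours at 0 h, and Zfp53 is the 1 gene called at all 4 times.

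After 4 h of stimulation 8 members were higher in KO (4.52% of 177) and 0 lower, against 3.3% and 0.834% of all genes and 7.43% and 1.36% of genes at level 5 or more. Over all Zfp genes 12 were higher and 0 lower. This count depended on the processing: after quantile normalisation only 2 members were called and the members' median change went from 0.07 to -0.00. It was 2 without WT array 1, 14 without WT array 2, 3 without KO array 1, 5 without KO array 2, 6 when arrays 3 were left out, and 2 when KO array 2 was the only KO array used. Besides Zfp53 and Zfp760 the called members were Zfp605 (0.71), Zfp219 (0.59), Zfp395 (0.49), Zfp831 (0.46), Zfp386 (0.44) and Zfp110 (0.30). Their arrays did not overlap between genotypes, which again only describes genes already called on these arrays. None of the 8 calls held in every fit that left out 1 array. Zfp605 and Zfp219 were lost without WT array 1 or KO array 3 (adjusted p from 0.055 to 0.102), Zfp395 without WT array 1 or KO array 1 or 2 (0.0503 to 0.0679), Zfp110 without any of the 6 arrays of 4 h but WT array 3 (0.0638 to 0.176), and Zfp386 without any of 15 arrays (0.0502 to 0.315).

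At 24 h more members differed, in both directions. Higher in KO were 8 (4.52%) and lower 11 (6.21%), against 3.9% and 7.38% of all genes and 9.04% and 16.6% of genes at level 5 or more. The direction of this balance turned with quantile normalisation, which gave 16 higher and 6 lower members, and moved genes at level 5 or more to 12.3% higher and 9.88% lower. The 19 calls fell to 11 without WT array 1, 7 without KO array 1 and 11 without KO array 2, and were 12 (5 higher, 7 lower) on arrays 1 and 2 alone. All 336 Zfp genes gave 14 higher and 13 lower.

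Zfp831, a zinc finger gene whose level dropped with stimulation, differed between genotypes in stimulated cells. At 0 h WT arrays read 8.93, 8.89 and 8.64 and KO arrays 8.79, 8.88 and 8.64, which overlap. At 24 h they read 6.88, 6.76 and 6.77 and 7.63, 7.52 and 7.43 (0.72 ± 0.11, adjusted p = 0.000114), and at 72 h 5.64, 5.84 and 5.5 and 6.43, 6.24 and 6.05 (0.58, adjusted p = 0.00129). The KO arrays lay above the WT arrays at 4, 24 and 72 h. The call at 4 h (adjusted p = 0.0177) was lost without WT array 2 or 3 or KO array 1, while those at 24 and 72 h held without any 1 array.

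The other genes higher in KO at 24 h were Zfp963 (0.53, adjusted p = 0.0457), Zfp169 (0.52, adjusted p = 0.00799), Zfp276 (0.51 ± 0.11, adjusted p = 0.00228), Zfp386 (0.48, adjusted p = 0.0116) and Zfp654 (0.35, adjusted p = 0.032), and of these Zfp963 and Zfp654 had overlapping arrays. Zfp276 read 4.46, 4.61 and 4.47 in WT and 4.96, 5.08 and 5.05 in KO arrays. The genes with the largest falls were Zfp770 (-0.55), Zfp410 (-0.46), Zfp598 (-0.42), Zfp367 (-0.41), Zfp599 (-0.39) and Zfp653 (-0.39). Zfp598, a ubiquitin ligase that senses collided ribosomes, read 7.90, 7.59 and 7.65 in WT and 7.20, 7.25 and 7.42 in KO arrays (adjusted p = 0.00161). Zfp410, known as a regulator of Chd4, was lower at an adjusted p of 0.00474 and was lost without KO array 2 (0.0542). Zfp131 read 8.55, 8.49 and 8.38 in WT and 7.99, 8.15 and 8.17 in KO arrays (-0.37 ± 0.07, adjusted p = 0.000857). Without any 1 array, Zfp53, Zfp831, Zfp276 and Zfp598 held among the 14 largest changes. Lost without WT array 1 or KO array 1 were Zfp169 and Zfp386, and without KO array 1 Zfp770 (0.0504). Zfp367 was lost without WT array 2 or 3 or KO array 1 or 2 (0.0651 to 0.144), Zfp599 without WT array 3 or KO array 1 (0.141 and 0.185) and Zfp653 without WT array 1 or KO array 1 or 2 (0.0668 to 0.156). Zfp654 was lost without WT array 1 or 3 or KO array 1 or 2 (0.0619 to 0.232), and Zfp963 without any of 13 arrays (0.0506 to 0.254).

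At 72 h, 7 members (3.95%) were higher in KO and 5 (2.82%) lower, against 2.56% and 3.78% of all genes and 5.77% and 6.93% of genes at level 5 or more; over all Zfp genes it was 10 and 7, and quantile normalisation gave 9 and 4 members. Without 1 array the 12 calls became 6 (WT array 1), 7 (WT array 2), 6 (WT array 3), 6 (KO array 1) or 5 (KO array 3), and 3 were left on arrays 1 and 2 alone. Zfp445, which protects imprints together with Zfp57, read 7.94, 7.95 and 7.87 in WT and 8.46, 8.63 and 8.61 in KO arrays (0.65 ± 0.09, adjusted p = 7.38e-06), and the groups were well apart. At 0 h the same gene read 7.76, 7.88 and 7.73 and 7.78, 8.03 and 7.97, which overlap. Higher too were Zfp958 (0.64, adjusted p = 0.0105), Zfp609 (0.41, adjusted p = 0.0284), Zfp362 (0.31, adjusted p = 0.0412) and Zfp809 (0.30, adjusted p = 0.0254), the last a KRAB protein that brings TRIM28 to the primer binding site of murine leukaemia viruses. Lower were Zfp712 (-0.57, adjusted p = 0.0438), Zfp287 (-0.49 ± 0.10, adjusted p = 0.00189), Zfp317 (-0.36, adjusted p = 0.0305), Zfp512 (-0.30, adjusted p = 0.0488) and Zfp131 (-0.24, adjusted p = 0.0427). The calls of Zfp53, Zfp445, Zfp831 and Zfp287 held without any 1 array, and the other 8 did not. Of the arrays of 72 h, WT array 3 or KO array 3 cost Zfp958 (0.0595 and 0.0816), WT arrays 1 and 3 and KO arrays 1 and 3 cost Zfp609 (0.0762 to 0.164), each but KO array 2 cost Zfp362 (0.0691 to 0.26), each but KO array 1 Zfp809 (0.0543 to 0.144) and each but WT array 2 Zfp317 (0.0512 to 0.184). Zfp712 was lost without any of 8 arrays (0.05 to 0.283), Zfp131 of 9 (0.0503 to 0.177) and Zfp512 of 19 (0.051 to 0.275).

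Across the 4 times, 21 members were higher in KO at 1 time or more, 16 lower, and 0 were called in both directions. The matching share over all genes was not counted. At 0, 4, 24 and 72 h the shares of members called were 4.52%, 4.52%, 10.7% and 6.78%. Those of genes at level 5 or more were 4.34%, 8.79%, 25.7% and 12.7%. The 4 genotype comparisons set different arrays against each other but share 1 estimate of the spread, taken from all 24 arrays. Zfp53 was higher at 4 times, Zfp760 and Zfp831 at 3, Zfp110 and Zfp386 at 2, and Zfp131 was lower at 2. Averaged over the times, 20 members were higher (Zfp53 0.94, Zfp760 0.69, Zfp992 0.65, Zfp781 0.48 and Zfp831 0.43 leading) and 7 lower, against 5.46% and 4.34% of all genes and 11.5% and 8.45% of genes at level 5 or more. On arrays 1 and 2 alone the 27 calls became 16.

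Stimulation moved far more expressed Zfp genes than the loss of TRIM28 did. In WT cells at 4 h 48 members (27.1%) were higher and 45 (25.4%) lower than at 0 h, against 16.8% and 17.8% of all genes and 35.8% and 34.1% of genes at level 5 or more. At 24 h, 46 (26%) were higher and 60 (33.9%) lower, against 23.2% and 16.5%. At 72 h, 32 (18.1%) were higher and 68 (38.4%) lower, against 22.2% and 18.3%. Genes at level 5 or more had the opposite balance at these later times, with 45.4% higher and 30.9% lower at 24 h and 43.6% and 32.5% at 72 h, but not after quantile normalisation, which gave 37.9% and 38.7%, and 35.7% and 41.4%. The 3 comparisons share their 0 h arrays. Over all 336 Zfp genes 56 were higher and 73 lower at 4 h, 69 higher and 83 lower at 24 h, and 60 higher and 86 lower at 72 h.

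KO cells gave 39 members higher and 47 lower at 4 h, 24 higher and 69 lower at 24 h, and 30 higher and 79 lower at 72 h, against 15.1% and 16%, 17.6% and 16.5%, and 21.1% and 18.6% of all genes. The shares over genes at level 5 or more were 33.7% higher and 31.9% lower at 4 h, 36.8% higher and 32.8% lower at 24 h, and 40.5% higher and 34.7% lower at 72 h. The median change over members in WT cells was -0.01, -0.07 and -0.17 at 4, 24 and 72 h, and in KO cells 0.03, -0.16 and -0.27. Over genes at level 5 or more it was 0.01, 0.16 and 0.11 in WT cells. Quantile normalisation shifted the medians of those genes to -0.01 at 24 h and -0.06 at 72 h in WT cells and made the members' balance more negative: 32 higher and 79 lower at 24 h, and 22 and 98 at 72 h. In KO cells it gave 18 and 78 at 24 h and 24 and 95 at 72 h. At 4 h it gave 50 higher and 37 lower in WT and 49 and 41 in KO cells, and centring on the median gave 53 and 39 and 42 and 45. The balance at 4 h thus turned with quantile normalisation in KO cells, while in WT cells more members were higher than lower under each of the 3 scalings. On arrays 1 and 2 alone the WT counts were 32 and 42, 43 and 48, and 30 and 66.

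**Figure D3:**
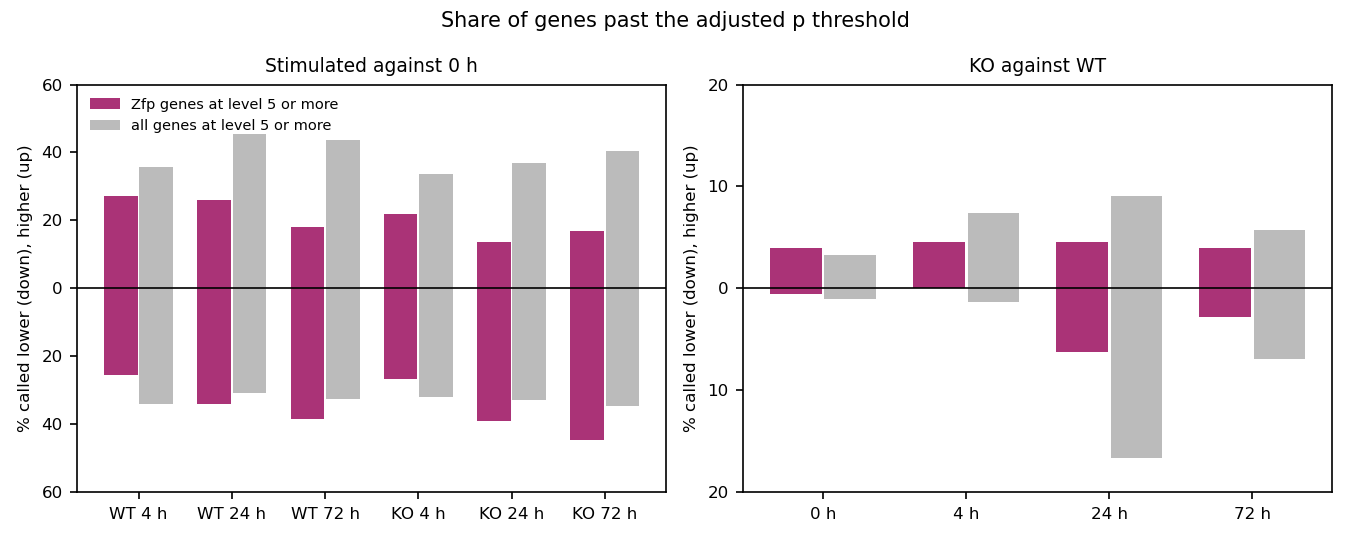
Percent of genes called higher (above zero) and lower (below zero) than at 0 h in WT and KO cells at 4, 24 and 72 h, for the 177 expressed Zfp genes and for all genes at level 5 or more. At 72 h in WT cells 18.1% of the Zfp genes were higher and 38.4% lower, against 43.6% and 32.5% of all genes at that level.

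The largest rise of any member was that of Zfp948. In WT cells its 3 arrays went from 4.52, 5.04 and 4.92 at 0 h to 9.26, 9.39 and 9.45 at 4 h (4.54 ± 0.14, adjusted p = 1.73e-18) and stood at 6.85, 7.05 and 7.01 at 24 h, with 6.84, 6.91 and 6.59 left at 72 h. The peak was thus at 4 h, and the later levels lay above the start by 2.14 and 1.96. KO cells rose by 3.21, 1.32 and 1.36.

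Zfp367 rose late. The WT arrays read 5.34, 4.91 and 5.27 at 0 h and 4.96, 5.21 and 4.85 at 4 h, then 7.76, 8.0 and 7.91 at 24 h (2.72 ± 0.12, adjusted p = 3.77e-16) and 7.46, 7.55 and 7.45 at 72 h (2.32). The KO changes were 2.15 and 2.02 at these times. Zfp219 rose later still, from 6.15, 5.91 and 6.28 at 0 h to 7.42, 7.30 and 6.97 at 24 h and 7.96, 7.97 and 8.04 at 72 h (1.88 ± 0.14, adjusted p = 5.7e-12; KO 1.79), after 5.61, 5.62 and 5.95 at 4 h. Zfp330, a nucleolar protein gene, rose early, from 6.90, 6.85 and 6.87 to 8.32, 8.38 and 8.33 at 4 h (1.47 ± 0.08, adjusted p = 1.27e-14; KO 1.34). The time of the highest level thus differed between these genes.

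Other members with large rises in WT cells were Zfp599 (1.1, 1.27 and 1.33 at 4, 24 and 72 h; KO 0.70, 0.72 and 1.23), Zfp397 (1.24 at 4 h; KO 1.0), Zfp131 (0.87 at 4 h), Zfp821 (1.51 at 72 h; KO 1.27) and Zfp992 (1.75 at 24 h; KO 0.14). Zfp760 rose by 0.61, 1.38 and 1.92 in WT cells, while in KO cells it fell at 4 h (-0.45, adjusted p = 0.0235) and did not pass at 24 h (0.24, adjusted p = 0.261) or 72 h (0.30, adjusted p = 0.133).

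The largest falls were those of Zfp831, Zfp36 and Zfp652. Zfp831 fell by 1.93, 2.01 and 3.16 in WT cells at 4, 24 and 72 h, and its KO changes were -1.42, -1.24 and -2.53. Zfp36 stood at 10.29, 10.004 and 9.82 in WT arrays at 0 h and 9.83, 9.94 and 9.94 at 4 h (-0.13, adjusted p = 0.408), then at 8.24, 8.17 and 7.99 at 24 h (-1.90 ± 0.11, adjusted p = 9.45e-14) and 7.41, 7.22 and 7.34 at 72 h (-2.72 ± 0.11, adjusted p = 7.02e-17). Its arrays overlapped between 0 and 4 h and not after that, and KO cells changed by -0.04, -1.45 and -2.36. Zfp652 descended in steps, from 8.23, 8.31 and 8.33 to 7.11, 7.01 and 6.93, then 6.31, 6.53 and 6.38, and 5.70, 5.60 and 5.89 (-1.27, -1.89 and -2.56; KO -1.23, -1.69 and -2.70), with no overlap between any of the 4 times.

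Other members with large falls in WT cells were Zfp945 (-1.34, -1.51 and -1.80; KO -1.51, -1.83 and -2.59), Zfp362 (-1.66, -1.1 and -1.60; KO -1.20, -0.63 and -1.07) and Zfp287 (-1.58, -1.51 and -1.08; KO -1.11, -0.96 and -1.29). Zfp395 had a dip at 4 h, with WT arrays at 6.69, 6.87 and 6.66 at 0 h, 4.87, 4.95 and 5.0 at 4 h (-1.80 ± 0.11, adjusted p = 6.25e-13; KO -1.29), then 6.42, 6.59 and 6.28 at 24 h, with 6.44, 6.54 and 6.65 by 72 h. The 30 changes named here for stimulated WT cells (the 5 largest in each direction at each time) all held without any 1 array and under the other 9 alternatives.

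**Figure D4:**
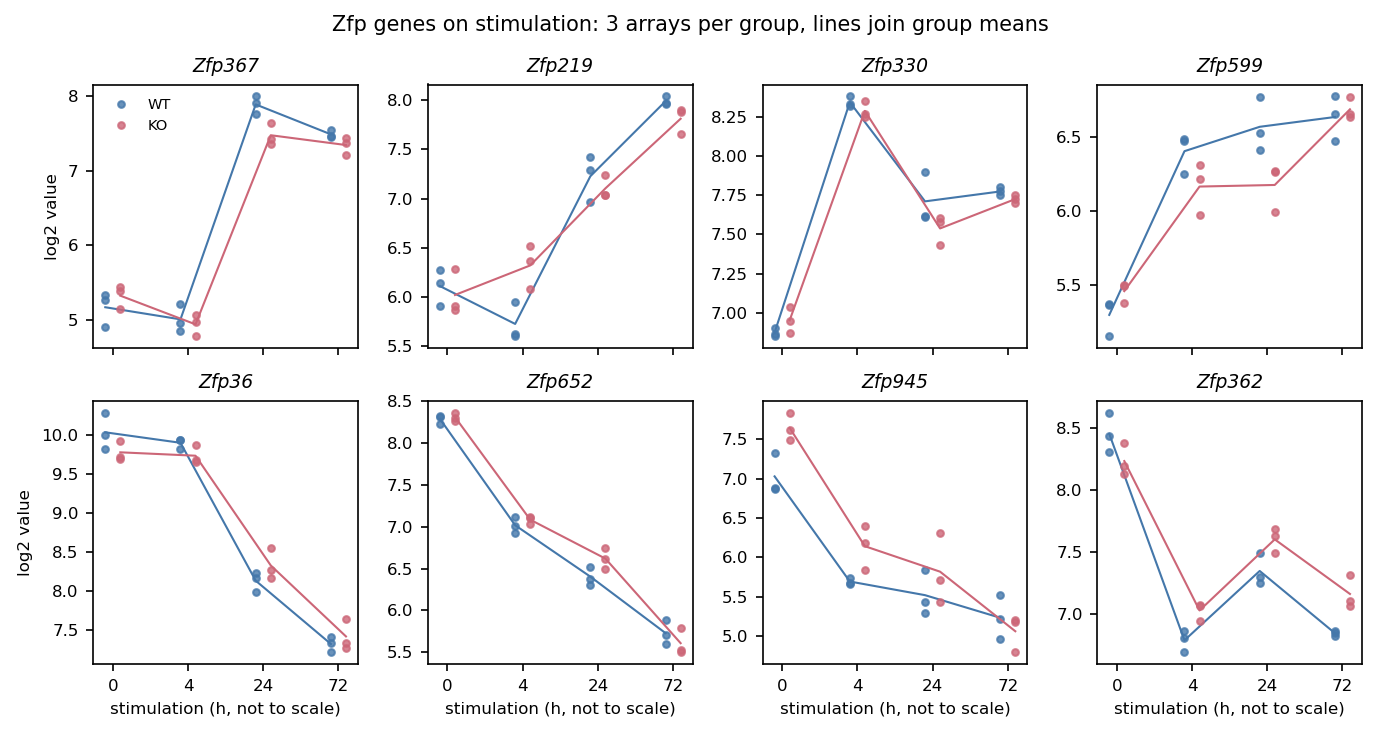
Log2 value on each of the 24 arrays, by hours of stimulation, of 8 expressed Zfp genes with large responses; points are arrays and lines run through the group means of 3 arrays. Zfp330 peaks at 4 h and Zfp367 at 24 h, Zfp219 is highest at 72 h, and Zfp36 and Zfp652 reach their lowest values at 72 h.

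A list of 32 Zfp genes with a known role was also examined, of which 28 were measured, 21 at level 5 or more and 7 (Zfp57, Zfp608, Zfp42, Zfp423, Zfp521, Zfp932 and Zfp819) below it. In stimulated WT cells 11 were higher and 5 lower at 4 h, 9 higher and 8 lower at 24 h, and 3 higher and 11 lower at 72 h. Between genotypes 0 and 0 were called at 0 h, 0 and 0 at 4 h, 1 higher and 7 lower at 24 h, and 3 and 1 at 72 h. The shares over all genes and over genes at level 5 or more are those given with each comparison for the members; of genes at level 5 or more 35.8% were higher and 34.1% lower in WT cells at 4 h and 43.6% and 32.5% at 72 h, and between genotypes 9.04% and 16.6% at 24 h.

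Among genes for KRAB proteins and other silencing factors, Zfp809 was higher than at 0 h by 0.28 at 4 h and 0.25 at 24 h and lower at 72 h (-0.36) in WT cells. Zfp568, which represses a fetal promoter of Igf2, rose by 0.39 and 0.59 at 4 and 24 h and read -0.02 at 72 h, not called. Zfp638 rose by 0.23 at 4 h and fell by 0.51 at 72 h. All 3 thus had their highest WT level before 72 h.

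Among genes that act on RNA or ribosomes, Zfp598 was higher by 0.50, 0.57 and 0.35 at the 3 times in WT cells, and Zfp622, needed to mature the large ribosomal subunit, was lower at 24 h (-0.47) and 72 h (-0.41). Zfp106, an RNA-binding protein gene, read 7.41, 7.36 and 7.25 in unstimulated WT arrays, 8.0, 8.22 and 8.18 after 4 h, 8.58, 8.58 and 8.61 after 24 h, and 8.31, 8.36 and 8.17 after 72 h, with rises of 0.79, 1.25 and 0.94. In KO cells it was lower than in WT cells at 24 h (-0.34). Zfp326, part of a complex that couples transcription to splicing, fell at 72 h (-0.56). Zfp451, a SUMO ligase gene, rose at 4 h (0.48) and 24 h (0.41), as did Zfp207 (0.40 and 0.33).

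Among DNA-binding regulators, Zfp292 fell by 0.78, 1.08 and 1.0, Zfp217 by 1.03, 0.70 and 0.41, and Zfp148 by 0.30, 0.28 and 0.54 at 4, 24 and 72 h in WT cells. Zfp384 fell at 24 h (-0.33) and 72 h (-0.64). Zfp281, known from pluripotent cells, was higher at 4 h (0.71) and lower at 24 h (-0.24). Zfp407 rose by 0.44 at 4 h and fell by 0.62 at 72 h, Zfp692 fell at 4 h (-1.02), and Zfp410 rose at 24 h (0.52). Zfp318, known for its role in IgD splicing in B cells, was not called in any of the WT comparisons (0.22, 0.17 and -0.09).

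The response to stimulation differed between genotypes for a minority of members. This was tested as the change in KO minus the change in WT cells, and 2 members passed at 4 h (1.13% of 177, against 0.726% of all genes), 15 at 24 h (8.47% against 5.87%) and 7 at 72 h (3.95% against 3.91%). Among genes at level 5 or more the shares were 1.48%, 13.6% and 7.56%, above those of the members at each time. The 0 h arrays enter each of these differences, so a gap between genotypes at 0 h is part of them. Zfp760 changed by 1.06 less at 4 h (adjusted p = 0.0139), 1.14 less at 24 h (adjusted p = 0.00217) and 1.62 ± 0.22 less at 72 h (adjusted p = 1.92e-05) in KO than in WT cells. Zfp948 rose by 1.34 ± 0.20 less at 4 h (adjusted p = 0.000554) and 0.82 less at 24 h (adjusted p = 0.0156). Zfp992 rose by 1.61 ± 0.42 less at 24 h (adjusted p = 0.0232). The call of Zfp948 at 24 h was lost without WT array 1 or KO array 2 of 0 h (0.0522 and 0.0531) and that of Zfp992 without any of 6 arrays of 0 and 24 h (0.056 to 0.0759).

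In the opposite sense, Zfp831 fell less in KO cells, by 0.77 ± 0.16 at 24 h (adjusted p = 0.0045) and 0.63 at 72 h (adjusted p = 0.0227). The call at 72 h was lost without any of 6 arrays of 0 and 72 h (0.0517 to 0.0866). For Zfp445 the change was greater by 0.51 ± 0.12 in KO cells at 72 h (adjusted p = 0.0123). Of the 15 at 24 h, 4 were greater and 11 smaller in KO, which quantile normalisation turned into 6 and 5. At 72 h the split was 5 and 2. The 15 calls became 9 without WT array 1 of 0 h, 8 without WT array 2 of 0 h, 7 without KO array 2 of 0 h and 9 without KO array 1 or 2 of 24 h, and 9 on arrays 1 and 2 alone. The 7 calls at 72 h became 3 without KO array 1 of 72 h and 4 on arrays 1 and 2 alone.

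Neighbouring Zfp genes differed in how they followed stimulation. At 72 h in WT cells 18.1% of members were higher and 38.4% lower, against 43.6% and 32.5% of genes at level 5 or more. Of all genes, 22.2% were higher and 18.3% lower. In the run from Zfp786 to Zfp467 (8 genes, 6 of them members), 6 genes were lower and 0 higher in WT cells at 72 h, with a median change of -0.57. These were the members Zfp398 (-1.34), Zfp746 (-0.77), Zfp956 (-0.65), Zfp777 (-0.49) and Zfp212 (-0.34), and Zfp467 (-0.99), which is below the level limit. The member Zfp282 read 0.08, not called. In the run of 5 from Zfp868 to Zfp866 (median -0.72) all 4 members were lower: Zfp868 (-0.73), Zfp869 (-0.72), Zfp963 (-0.91) and Zfp866 (-0.65). The fifth gene, Zfp964, which is below the limit, was higher (0.34). In the run of 5 from Zfp579 to Zfp580 (median -0.45), 4 were lower, among them the members Zfp524 (-0.45), Zfp865 (-0.44) and Zfp784 (-0.92), while the member Zfp580 read 0.17, not called.

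Other runs were mixed. The run from Zfp677 to Zfp40 had 8 genes higher and 5 lower, with Zfp948 and Zfp760 up and Zfp945, Zfp943 (-0.74) and Zfp758 (-0.67) down. The run from Zfp84 to Zfp146 (14 genes, 11 members) had 3 higher and 3 lower, and the run from Zfp553 to Zfp689 had 3 higher and 1 lower with a median of 0.37. The runs named here, those of the preceding paragraph included, were picked for display after their values had been seen. Whether the genes of a run change together was not tested. Over all runs, 11 members were higher and 34 lower at 72 h of 86, and of the 90 members outside runs 21 and 34.

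The promoter windows of the members were then searched for short motifs. Of the 177 members 150 matched a RefSeq promoter, with 184 windows of 300 bases. Members' windows held a median of 16 CG dinucleotides, those of all Zfp genes 14, and the 32851 windows of all genes in the table held a median of 7. CCAAT stood in 47.8% of member windows, 47% of those of all Zfp genes and 37.4% of all windows. GGGCGG stood in 51.1%, 45.6% and 35.7%, CCGGAAGT (the ETS site; ACTTCCGG on the other strand) in 10.9%, 10.7% and 3.89%, and TGACGT in 14.1%, 10.9% and 7.51%. The table's windows are of all genes, expressed or not, and against other genes at level 5 or more the order was different. Counted per gene with a promoter, GGGCGG stood in 82 of 150 members (54.7%) and 4738 of 6623 other genes at that level (71.5%), TGACGT in 14% and 15.1%, CCGGAAGT in 12% and 11%, and CCAAT in 52.7% and 42.9%. These 4 were kept from a wider set of motifs after their shares had been seen, so the figures are a description, and a match is not a site bound in these cells.

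TGACGT was spread unevenly over members that rose and fell. At 72 h in WT cells 12 of 29 members that rose and had a promoter held it (41.4%), against 1 of 57 that fell (1.75%) and 8 of 64 that were not called (12.5%). Among other genes at level 5 or more the shares were 15.7% of those that rose, 16.5% of those not called and 13.1% of those that fell. At 4 h it was 11 of 43 members that rose (25.6%) and 1 of 37 that fell (2.7%), against 19.6% and 10.2% of the others. At 24 h it was 10 of 35 (28.6%) and 4 of 51 (7.84%), against 16.4% and 12.1%.

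Over all 336 Zfp genes the counts at 72 h were 15 of 50 (30%) and 2 of 72 (2.78%). In KO cells, members that rose and fell held it in 6 of 32 (18.8%) and 4 of 39 (10.3%) at 4 h, 7 of 19 (36.8%) and 5 of 59 (8.47%) at 24 h, and 11 of 27 (40.7%) and 7 of 67 (10.4%) at 72 h. The other motifs at 72 h in WT cells stood in 62.1% and 54.4% (CCAAT), 55.2% and 57.9% (GGGCGG) and 6.9% and 15.8% (CCGGAAGT) of members that rose and fell. The split was looked at after the motif had been chosen, the comparisons share arrays, and no test was made of it.

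**Figure D5:**
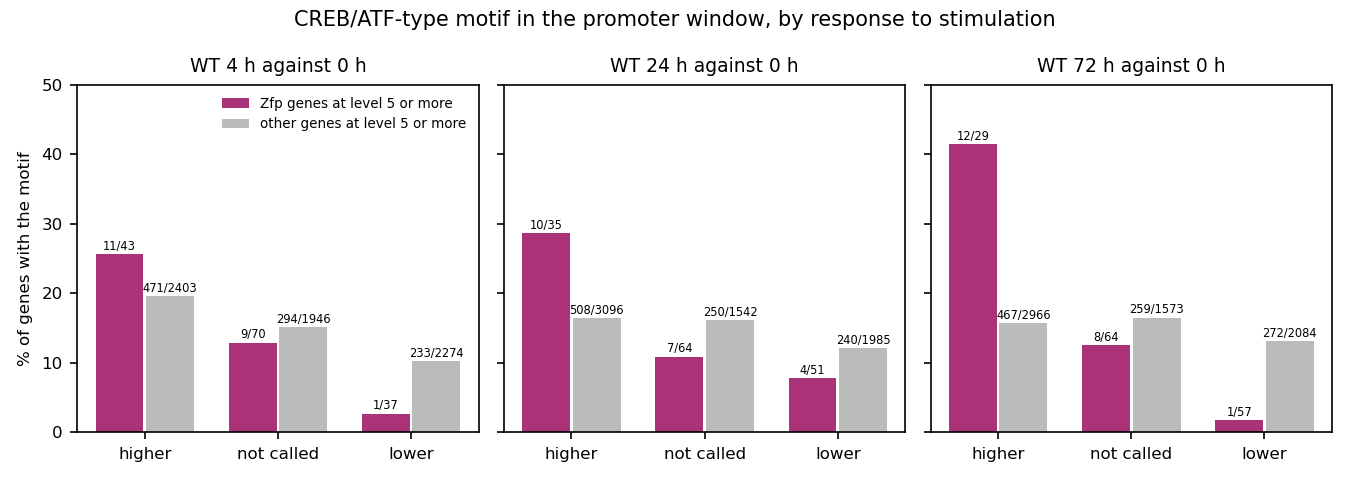
Percent of genes with TGACGT on either strand of a promoter window of 300 bases, by direction of change in WT cells at 4, 24 and 72 h, for the expressed Zfp genes and for other genes at level 5 or more, with the counts above the bars. At 72 h the motif stood in 12 of 29 Zfp genes that rose and 1 of 57 that fell.

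The motif's surroundings in members that rose at 72 h are shown with 10 bases on each side, read on the strand that carries TGACGT (in capitals), because the core is flanked differently from gene to gene; the 8 genes were chosen after their values had been seen.
Zfp367, chr13:64152463-64152488, - strand: gacaggacgcTGACGTcactgccgcg
Zfp266, chr9:20521421-20521446, - strand: gaaatggaagTGACGTcacggccagc
Zfp821, chr8:109705351-109705376, - strand: ggaggtgtccTGACGTttccgcgcac
Zfp189, chr4:49521118-49521143, + strand: cagcggccccTGACGTtgcccagacc
Zfp940, chr7:29853695-29853720, - strand: tcccctctggTGACGTaagagtcgca
Zfp948, chr17:21566967-21566992, + strand: gttagggcagTGACGTgaacggaagc
Zfp983, chr17:21650597-21650622, + strand: agttagggggTGACGTaaacggaagc
Zfp598, chr17:24669667-24669692, + strand: ctgagggcagTGACGTcgacggaagg
In Zfp367 and Zfp266 the core continues as the palindrome TGACGTCA, the full cAMP response element, which matches on both strands at 1 place. In Zfp948, Zfp983 and Zfp598 the 7 bases acggaag lie among the 10 bases after it, as in 3 of the 12 genes examined, and the match lies 1, 4 and 10 bases before the transcript start. The WT changes of these genes at 72 h were 2.32 for Zfp367, 0.43 for Zfp266, 1.51 for Zfp821, 0.98 for Zfp189, 0.90 for Zfp940, 1.96 for Zfp948, 0.40 for Zfp983 and 0.35 for Zfp598.

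The partners through which KRAB zinc finger proteins act were listed beside the members. Of 39 listed genes of the TRIM28 silencing pathway 32 were measured. In KO, 3, 4, 4 and 7 were higher and 1, 1, 7 and 2 lower at 0, 4, 24 and 72 h. The 1 lower gene at 0 h and at 4 h was Trim28 itself, the gene lacking in KO. It was also among the lower at 24 and 72 h. In stimulated WT cells 14, 19 and 20 were higher and 10, 8 and 6 lower at 4, 24 and 72 h. Of genes at level 5 or more, 3.31%, 7.43%, 9.04% and 5.77% were higher and 1.03%, 1.36%, 16.6% and 6.93% lower in KO at those times, and 35.8%, 45.4% and 43.6% higher and 34.1%, 30.9% and 32.5% lower in stimulated WT cells. Setdb1, the methyltransferase, was higher in KO by 0.29, 0.72 and 1.43 at 4, 24 and 72 h (adjusted p = 0.00939, 2.95e-08 and 2.66e-14) after 0.12 at 0 h, not called. Trim24, a relative of TRIM28, was higher by 2.35, 0.75, 1.56 and 0.49 at the 4 times, and Morc3 by 1.19, 0.56 and 0.38 at 0, 4 and 24 h. In WT cells Trim28 rose by 0.64, 1.40 and 0.85 with stimulation, and the largest change at 24 h among those named was that of Uhrf1 (4.83), which guides maintenance methylation.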

How the data were processed

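The deposited table holds log2 values of 24 Affymetrix arrays. Per the submitters' processing notes, the authors processed them with R 3.1.0, RMA and oligo; the sources used here give no genome build or probe masking. Of 41345 probe sets, 25335 are listed in the platform annotation, 23521 with 1 gene and 1814 with several. Symbols were updated by Entrez identifier to 22180 genes, each read by its probe set of highest mean (15 members have several). Array medians lay between 3.59 and 3.76; precision is limited by 3 arrays per group.

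Group means of the 8 groups were fitted to all 24 arrays with limma 3.58.1 (R 4.3.3; lmFit, eBayes with a trend, 24.8 degrees of freedom in all) and contrasts were adjusted by Benjamini-Hochberg over all genes at 0.05. The fit was tested on simulated data. No replicate block was used: same-numbered arrays correlated over 0.1 in every pair in 1 of 10 comparisons. Own-numbered arrays nevertheless correlated best in 9 of 10 comparisons, and the arrays numbered 3 differed in Y-linked genes in both genotypes. The counts with a block are given below.

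Members, lists and named genes were chosen with earlier results of these data known. Named were the members of highest mean and at the limit, called members (at most 8 higher and 6 lower), the 5 largest changes each way in WT cells, up to 4 each way where genotypes responded differently, genes with known roles, genes in the same run and silencing partners. Alternatives were another normalisation, centring, filter, level limit, probe set rule, variance model and set of arrays. Promoters come from the RefSeq table (GRCm38.p6); alignments were global.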

Additional observations from a re-analysis of the deposited data

Results flagged for a closer look

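A difference between the genotypes in the response to stimulation, tested as the KO change minus the WT change in log2 units, picked out the following members for a second look. At 4 h these were Zfp948 (-1.34) and Zfp760 (-1.06). At 24 h the smaller responses in KO were those of Zfp992 (-1.61), Zfp760 (-1.14), Zfp943 (-0.84, adjusted p = 0.0185) and Zfp948 (-0.82), and those above WT were Zfp831 (0.77), Zfp276 (0.66, adjusted p = 0.00932), Zfp287 (0.54, adjusted p = 0.0234) and Zfp362 (0.47, adjusted p = 0.0327). At 72 h Zfp760 (-1.62) and Zfp131 (-0.40) were below, and Zfp931 (0.72, adjusted p = 0.0377), Zfp831 (0.63), Zfp362 (0.53, adjusted p = 0.0169) and Zfp445 (0.51) above.

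Zfp760 stood out at all 3 times. Its 0 h values were apart between genotypes and its 72 h values overlapped, and the differences in response held without any 1 array at each time. Of these 16 differences 7 held without any 1 array, 9 were lost without at least 1, and 0 changed sign in any alternative.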

How the results depend on the processing

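Of 88 named calls, 43 held in all alternatives and 0 changed direction; all 30 in stimulated WT cells held, as did 9 of 42 between KO and WT and 4 of 16 in the difference of responses. Calls lost numbered 12 with quantile normalisation, 3 with centring, 19 with a fit on the groups compared, 5 without the trend, 3 with robust eBayes, 31 on arrays 1 and 2 alone, and 0 with the mean of probe sets or the filter at the 40th percentile. With the replicate block Zfp963 at 24 h (adjusted p = 0.0508) and Zfp362 (0.0512) and Zfp512 (0.0549) at 72 h were lost, and the counts of called members were 8, 8, 17 and 11 (KO against WT at 0, 4, 24 and 72 h), 91, 107 and 100 (WT at 4, 24 and 72 h), 87, 92 and 109 (KO), 2, 15 and 7 (difference of responses) and 24 (average); own-numbered arrays correlated best in 9 of 10 comparisons.

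Counts moved over 1.5 times as follows. For KO against WT, the fit on the groups compared gave 5 at 0 h, 1 at 4 h and 20 at 72 h; arrays 1 and 2 alone gave 5 at 0 h, 12 at 24 h, 3 at 72 h and 16 for the average; KO array 2 as the only KO array gave 3 at 0 h and 2 at 4 h; quantile normalisation gave 2 at 4 h; a level limit of 6 gave 5 at 0 h. For the difference of responses the groups compared gave 1 at 4 h and 8 at 24 h, arrays 1 and 2 gave 1, 9 and 4 at 4, 24 and 72 h, and no level limit 11 at 72 h. Changing the membership changed the number of genes counted: a limit of 6 gave 70 and 61 in WT and 60 and 64 in KO cells at 24 and 72 h, and no limit 164 in KO cells at 72 h. The cause of the other moves was not tested.

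Leaving out 1 array gave 5 to 9 calls at 0 h, 2 to 14 at 4 h, 7 to 22 at 24 h and 5 to 15 at 72 h for KO against WT, and 19 to 27 for the average. For stimulation it gave 79 to 95, 95 to 107 and 93 to 104 in WT and 66 to 89, 78 to 98 and 103 to 112 in KO cells, and for the difference of responses 2 to 3, 7 to 15 and 3 to 8. Signal limits what can be seen: 159 Zfp genes lay below the level limit.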

Other observations

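The 159 Zfp genes below the level limit also held some that differed between genotypes, given here by KO minus WT in log2 units. At 0 h, besides Zfp873, Zfp879 (0.86), Zfp365 (0.81) and Zfp358 (0.58) were called higher, and 0 of them lower. At 4 h Zfp28 (0.92), Zfp606 (0.71) and Zfp112 (0.69) were higher. At 24 h Zfp704 (0.84), Zfp949 (0.60), Zfp952 (0.60), Zfp608 (0.59) and Zfp853 (0.45) were higher, and Zfp932 (-0.59) and Zfp296 (-0.54) lower. At 72 h Zfp704 (0.90), Zfp493 (0.56) and Zfp608 (0.54) were higher, and Zfp750 (-0.47) was lower, besides Zfp946. The means of these 15 genes over the 24 arrays ran from 3.28 (Zfp112) to 4.97 (Zfp949).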
